A study of Mus musculus with 24 samples.

Results

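Irf8, Bcl6 and Id2 are 3 transcriptional regulators known to oppose osteoclast formation. They were followed in mouse bone marrow cultures before and during treatment with RANKL, the cytokine that drives osteoclast formation. They were selected by gene symbol for that role and are 3 of the 10721 genes in the deposited expression table. All 3 had a mean of at least 1 FPKM (fragments mapped to a gene, scaled by transcript length and library size) in every group. In all, 10081 genes reached that level in at least 1 group and were tested.

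The marrow came from female mice of 10 to 12 weeks, either wild type (WT) or STING-deficient (KO), with 3 mice of each genotype. STING is the adaptor of cytosolic DNA sensing that induces type I interferon, and how its gene was disrupted is not given in the sources used here. Cells of every group were first expanded for 72 h in 40 ng/mL mCSF (macrophage colony-stimulating factor), and those sampled at that point, without RANKL, are the day 0 osteoclast precursors. The others were replated, with mCSF at 20 ng/mL and RANKL at 10 ng/mL, and sampled at day 2, 3 or 4, with the wells of a mouse pooled. A density of 25000 cells per well is recorded for every group, day 0 included. Each mouse gave 1 bulk RNA library per day, which makes 24 libraries in 8 groups of 3, and mice are the replicates. No culture kept without RANKL past day 0 was analysed here, so RANKL, time, replating and the lower mCSF cannot be told apart in a comparison with day 0.

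An osteoclast precursor is a macrophage-lineage cell that lowers a set of repressors before it fuses and makes bone-resorbing enzymes. Irf8 is an interferon regulatory factor that directs monocyte, macrophage and dendritic cell development and, in precursors, opposes Nfatc1, the master transcription factor of osteoclasts. Bcl6 is a zinc finger repressor, best known from germinal centre B cells, that opposes osteoclast genes and is itself repressed by Blimp1, the product of Prdm1. Id2 is a helix-loop-helix protein without a DNA-binding region that holds basic helix-loop-helix (bHLH) factors off DNA.

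Tmem173, the gene of STING under the older symbol of the table, stood at 25.2 ± 3.70 FPKM (SD, n = 3) in the WT precursors before RANKL, and in those of KO mice at 4.84 ± 0.260 FPKM (SD, n = 3). On RANKL days the gap was narrower, with WT means of 6.26, 4.43 and 4.44 FPKM at days 2, 3 and 4 against KO means of 3.49, 3.58 and 2.79 FPKM, although the 2 genotypes did not overlap on any day. The summed level of 7 osteoclast markers was 56.7 to 162 FPKM per library at day 0 and 40838 to 49272 FPKM at day 4. Day 0 libraries also held RNA of other marrow cells: 6 neutrophil markers summed to 5581 to 15290 FPKM there, and to 61.3 to 207 FPKM on RANKL days. The 6 B cell markers summed to 22.6 to 107 FPKM at day 0 and to 0.162 to 0.595 FPKM later. Mice 480 (WT) and 481 (KO) stood apart at day 0, with B cell sums of 81.3 and 107 FPKM against 22.6 to 42.5 FPKM in the other 4 mice, and neutrophil sums of 15290 and 12346 FPKM against 5581 to 8629 FPKM. Depth is unknown for FPKM values, although the spacing of low values gave mouse 531 a shallower library than its WT fellows at day 3, with a step ratio of 0.683 where other pairs had 0.933 to 1.19. No pair of libraries was identical.

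The 3 windows of Irf8 and Bcl6 below are shown because they hold matches to the STAT-binding letters TTCNNNGAA (GAS, the interferon-gamma activated site). Each line gives the 250 bases upstream of a RefSeq start site on GRCm38.p6, read on the gene's strand, with GAS matches in capitals. Irf8 starts on the plus strand of chromosome 8 (window chr8:120736108-120736357). Bcl6 lies on the minus strand of chromosome 16, with an outer start (window chr16:23988853-23989102) and an inner start (window chr16:23981284-23981533). RefSeq gives Irf8 another, inner start (window chr8:120738389-120738638), which is not printed because it held 0 GAS matches.
Irf8 outer promoter: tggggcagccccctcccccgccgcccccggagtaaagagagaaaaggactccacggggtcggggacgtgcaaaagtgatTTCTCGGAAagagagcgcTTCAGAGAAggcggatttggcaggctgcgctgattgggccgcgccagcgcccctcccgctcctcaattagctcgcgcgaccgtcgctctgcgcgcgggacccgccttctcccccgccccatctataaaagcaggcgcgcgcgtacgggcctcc
Bcl6 outer promoter: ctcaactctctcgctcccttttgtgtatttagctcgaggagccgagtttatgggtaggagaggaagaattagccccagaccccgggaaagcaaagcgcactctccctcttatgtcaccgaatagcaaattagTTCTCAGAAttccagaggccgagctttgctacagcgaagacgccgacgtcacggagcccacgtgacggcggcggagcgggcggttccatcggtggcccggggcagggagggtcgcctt
Bcl6 inner promoter: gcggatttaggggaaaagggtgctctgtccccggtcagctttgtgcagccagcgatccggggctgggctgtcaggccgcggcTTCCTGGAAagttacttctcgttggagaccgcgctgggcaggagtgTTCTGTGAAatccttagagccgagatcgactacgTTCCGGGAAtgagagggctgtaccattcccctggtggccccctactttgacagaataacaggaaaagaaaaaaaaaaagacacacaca

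Counted back from the start site, with base -1 next to it, the outer Irf8 window held TTCTCGGAA at -171 to -163 and TTCAGAGAA at -153 to -145. The outer Bcl6 window held TTCTCAGAA at -118 to -110, and the inner one held TTCCTGGAA, TTCTGTGAA and TTCCGGGAA. GAS letters occur in 7.02% of the 32851 mouse promoter windows of the same length. That share is over unselected windows, whereas the 3 printed were chosen for their matches. The Id2 window held 0 GAS matches and 1 E-box (CANNTG), a motif present in 66.2% of windows, and the inner Irf8 window held 2 E-boxes and the outer Bcl6 window 1. None of these windows matched the interferon-stimulated response element, ISRE (GAAA, any 2 bases, GAAA, in 2.98% of windows), or TGANTCA (AP-1, 6.75%) on either strand. The short NFAT letters TTTCC occur in 55.6% of windows and matched both Irf8 and both Bcl6 windows, overlapping the most upstream GAS match in the outer Irf8 and the inner Bcl6 window. NF-kB letters (GGG, any 5 bases, CC) occur in 45.8% of windows and matched the 3 printed windows but not the inner one of Irf8. A match describes letters only, and binding was not measured.

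In full, on GRCm38, Irf8 spans chr8:120736358-120756694 on the plus strand, Bcl6 chr16:23965052-23988852 and Id2 chr12:25093799-25097140, both on the minus strand, and all 3 are protein-coding. A read-through gene, Gm20388, overlaps Irf8 on the same strand, and Gm37419 overlaps Bcl6 on the opposite strand. The sources used here do not give whether the counting used strand, and reads of these pairs may not be separable.

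Irf8 fell the most of the 3. In WT mice 480, 529 and 531 it stood at 95.9, 71.5 and 65.8 FPKM before RANKL, and after 2 days at 2.61, 3.73 and 3.82 FPKM. In KO mice 481, 528 and 532 it stood at 82.0, 69.6 and 77.2 FPKM before RANKL, and after 2 days at 2.45, 3.41 and 3.12 FPKM. Day 0 and day 2 did not overlap in either genotype, and Irf8 went from a level above 86.3% of genes tested in WT to one above 22.7%. Mean levels were 22.9-fold lower at day 2 in WT and 25.5-fold lower in KO. By limma on log2(FPKM + 1), the scale of every log2 difference given here, Irf8 fell by 4.16 in WT (SE 0.281, adjusted p = 5.84e-11) and by 4.28 in KO (SE 0.281, adjusted p = 3.88e-11). These differences ranked 72 from the lowest of 10081 genes in WT and 61 in KO. The added 1 FPKM shrinks log2 differences of genes at low levels, so ranks by size favour genes at high levels.

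Falling was common in this comparison: 37.5% of genes tested fell and 38.5% rose from day 0 to day 2 in WT, and 36.5% fell and 37.1% rose in KO. The deposited table is named for significant genes, and the rule that selected them is not given. Shares of all genes, here and below, are therefore shares of that selection and not of the whole transcriptome. All 3 regulators fell in both genotypes, so the count alone does not set them apart, whereas the size of the Irf8 and Id2 changes lay near the lower end of all genes. In bulk RNA, fewer cells of a type and less RNA per cell cannot be told apart, and the neutrophil and B cell markers that fell from day 0 moved with these genes. Their part in the result was not tested.

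**Figure D1:**
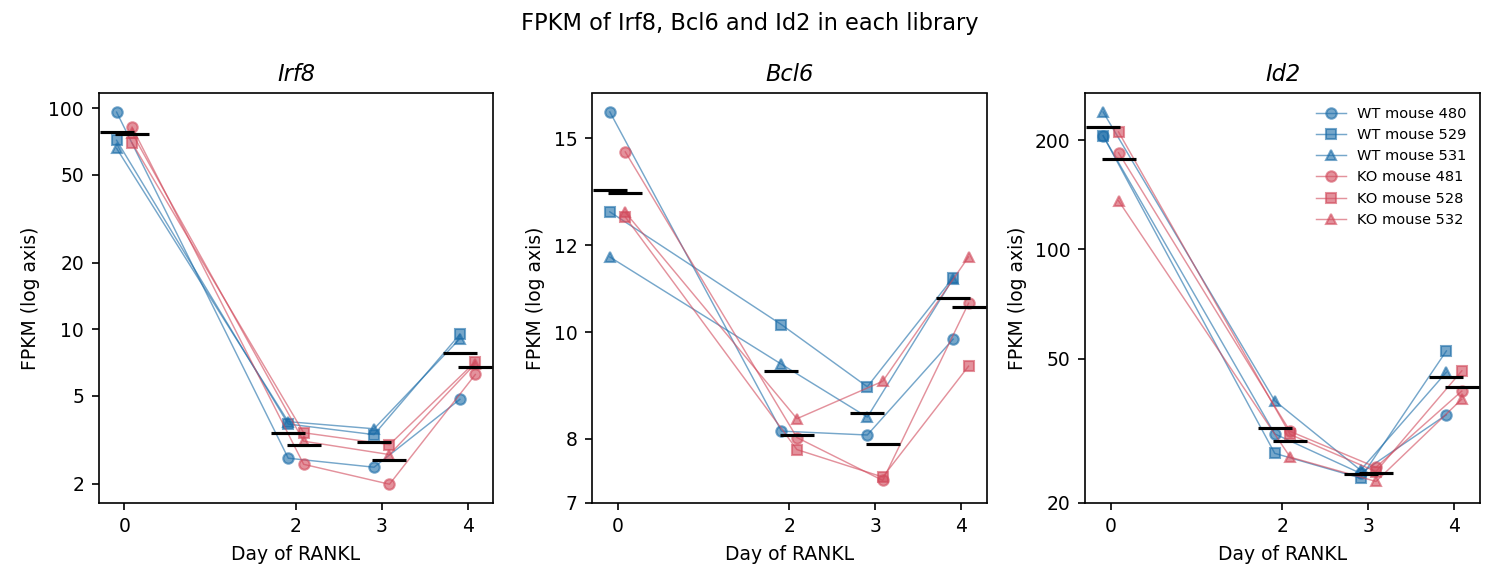
Irf8, Bcl6 and Id2 in each library by day (x axis, days of RANKL), in FPKM on a log y axis, with 1 line per mouse, colours for genotype and black bars at group means. Irf8 runs from 65.8 to 95.9 FPKM at day 0 down to 1.99 to 3.55 FPKM at day 3 and back to 4.82 to 9.49 FPKM at day 4, and all 3 genes are higher at day 4 than at day 3 in every mouse.

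Id2 fell next most. WT mice 480, 529 and 531 had 205.7, 205.9 and 239 FPKM at day 0, then 31.0, 27.4 and 38.2 FPKM at day 2. KO mice 481, 528 and 532 had 185, 211 and 136 FPKM at day 0, then 31.5, 30.9 and 26.7 FPKM at day 2. Every library at day 0 lay above every library at day 2. Id2 was 6.74-fold lower in WT, a fall by 2.72 in log2 (SE 0.191, limma adjusted p = 9.5e-11), and 5.97-fold lower in KO, a fall by 2.52 (SE 0.191, adjusted p = 3.28e-10). Even so it remained well expressed, above 74.5% of genes tested in WT at day 2.

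Bcl6 moved least. WT mice 480, 529 and 531 had 15.9, 12.9 and 11.7 FPKM at day 0, then 8.13, 10.2 and 9.35 FPKM at day 2. KO mice 481, 528 and 532 had 14.6, 12.7 and 12.9 FPKM at day 0, then 8.02, 7.82 and 8.35 FPKM at day 2. The groups did not overlap, but the lowest WT value at day 0, 11.7 FPKM, lay close to the highest at day 2, 10.2 FPKM. Bcl6 was 1.46-fold lower in WT at day 2 and fell by 0.50 in log2 (SE 0.143, limma adjusted p = 0.00386). In KO it was 1.66-fold lower and fell by 0.66 (SE 0.143, adjusted p = 0.000334). The WT call rests on mouse 480, which had the highest day 0 value and the lowest day 2 value. Without that mouse the WT difference was -0.30 (adjusted p = 0.0863), against adjusted p-values of 0.000267 to 0.0921 over all alternatives.

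Between day 2 and day 3 Irf8 and Bcl6 differed little. Irf8 at day 3 was 2.38, 3.34 and 3.55 FPKM in WT mice 480, 529 and 531 and 1.99, 3.01 and 2.72 FPKM in KO mice 481, 528 and 532. Bcl6 was 8.07, 8.92 and 8.37 FPKM in those WT mice and 7.34, 7.39 and 9.03 FPKM in the KO mice. As groups both overlapped their day 2 values, but within a mouse Irf8 was lower at day 3 than at day 2 in 6 of 6 mice, with log2 differences of -0.21 to -0.08, and Bcl6 in 5 of 6 (-0.17 to 0.10). The day 3 minus day 2 difference was -0.10 in WT and -0.16 in KO for Irf8 (limma adjusted p = 0.663 and 0.482). For Bcl6 it was -0.11 and -0.03 (adjusted p = 0.334 and 0.828). With the mouse as a fixed term none was called either, at limma adjusted p of 0.475 and 0.248 for Irf8 and 0.204 and 0.763 for Bcl6. In this comparison 24.2% of genes fell in WT and 20.3% in KO.

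Within a mouse, Id2 was lower at day 3 than at day 2 in 6 of 6 mice (-0.62 to -0.21), although the difference was called only in WT. It stood at 24.1, 23.4 and 24.6 FPKM at day 3 in WT mice and at 25.1, 24.4 and 22.9 FPKM in KO mice, with a WT coefficient of variation of 2.52%. In WT it fell by 0.39 from day 2 (SE 0.119, limma adjusted p = 0.00943). In KO the difference was -0.29 (SE 0.119, adjusted p = 0.0565), just short of the threshold although the groups did not overlap. With the mouse as a block it passed, at adjusted p = 0.0258 with an estimated within-mouse correlation and 0.0328 with the mouse as a fixed term, and over all alternatives adjusted p ran from 0.0152 to 0.208. Without WT mouse 531 the WT difference was -0.28 (adjusted p = 0.130, alternatives 0.00293 to 0.130).

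At day 3 the regulators were at their lowest mean in both genotypes. Set against day 0, Irf8 was 25.1-fold lower in WT and 29.6-fold lower in KO, Id2 9.02-fold and 7.34-fold lower, and Bcl6 1.59-fold and 1.69-fold lower. All 6 differences passed the test, with limma adjusted p from 4.74e-12 for Id2 in WT to 0.000485 for Bcl6 in WT. Among all genes, 41.6% fell in WT and 39.5% in KO. Per mouse, day 3 Irf8 was 2.43% to 5.40% of the day 0 level of the same mouse, Id2 10.3% to 16.8%, and Bcl6 50.3% to 71.5%. These ranges did not overlap between the 3 genes.

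From day 3 to day 4 all 3 regulators rose, in 6 of 6 mice. Irf8 reached 4.82, 9.49 and 9.07 FPKM in WT mice 480, 529 and 531 and 6.25, 7.13 and 6.99 FPKM in KO mice 481, 528 and 532. Every day 4 library lay above every day 3 library of its genotype. The Irf8 mean was 2.52-fold higher than at day 3 in WT and 2.64-fold higher in KO. It rose by 1.07 in WT (SE 0.169, limma adjusted p = 6.8e-05) and by 1.13 in KO (SE 0.169, adjusted p = 5.12e-05). By size this ranked 93 from the highest of 10081 genes in WT and 60 in KO.

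Id2 at day 4 was 35.0, 52.5 and 45.8 FPKM in the WT mice and 40.7, 46.2 and 38.6 FPKM in the KO mice, again without overlap with day 3. It rose by 0.84 in WT (SE 0.114, limma adjusted p = 1.56e-05) and by 0.77 in KO (SE 0.114, adjusted p = 5.12e-05), 1.85-fold and 1.73-fold. Bcl6 at day 4 was 9.86, 11.2 and 11.2 FPKM in the WT mice, against 10.6, 9.32 and 11.7 FPKM in the KO mice. It was 1.27-fold higher than at day 3 in WT, a rise by 0.31 (SE 0.0860, adjusted p = 0.00687), and 1.33-fold higher in KO, a rise by 0.37 (SE 0.0860, adjusted p = 0.00219). Among all genes tested, 19.0% rose from day 3 to day 4 in WT and 18.2% in KO, beside 3 of 3 regulators. The Bcl6 calls were narrow. Without WT mouse 531 the WT value was 0.28 (adjusted p = 0.0720, alternatives 0.0015 to 0.0720), and without KO mouse 481 the KO value was 0.32 (adjusted p = 0.0514, alternatives 0.00043 to 0.0514).

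**Figure D2:**
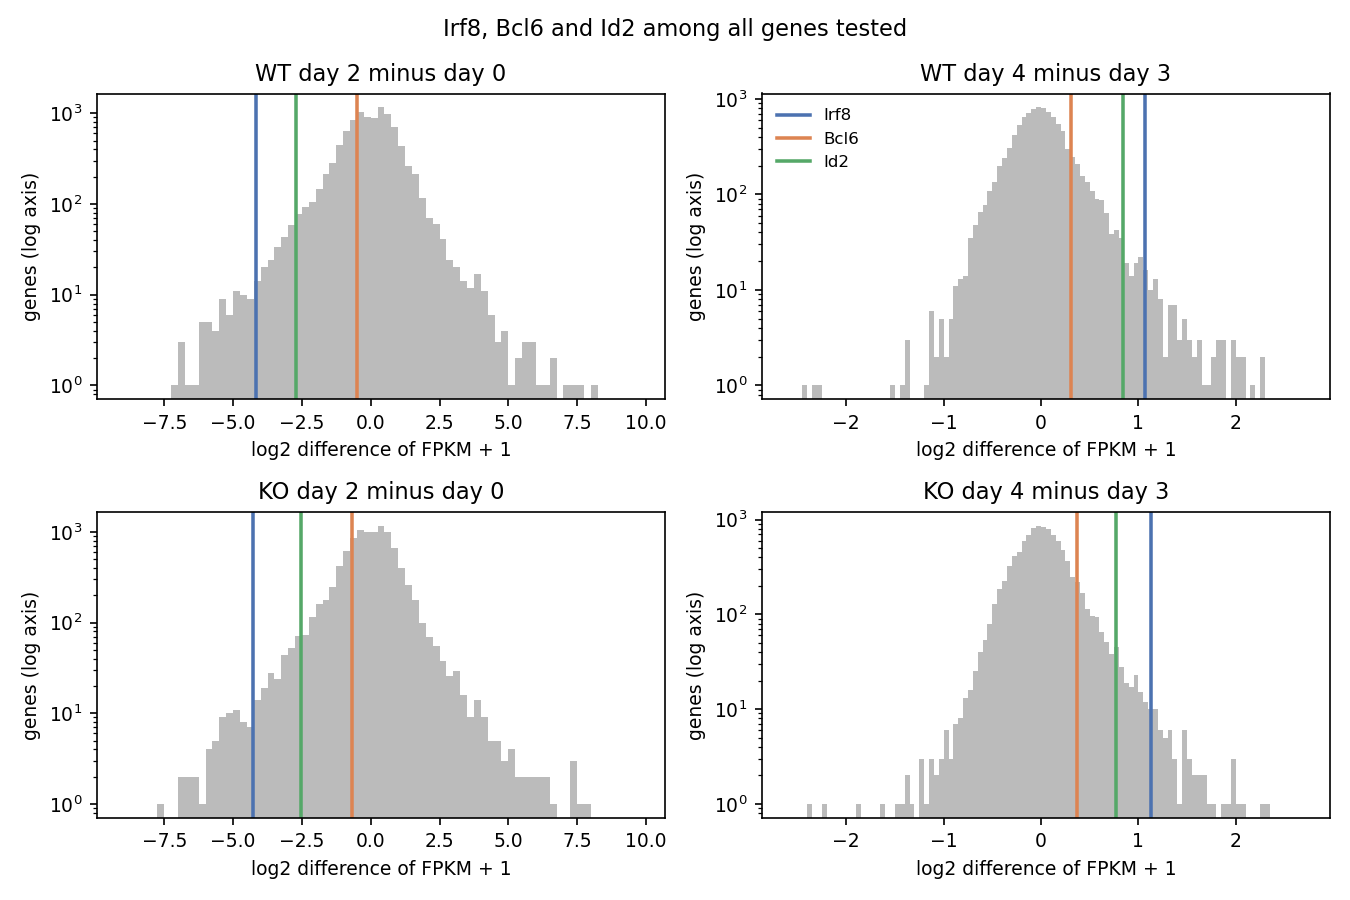
Number of genes (log y axis) by log2 difference of FPKM + 1 (x axis) for all 10081 genes tested, in the first step (day 2 minus day 0, left) and the last (day 4 minus day 3, right) of each genotype, with vertical lines at Irf8, Bcl6 and Id2. In WT the Irf8 line is at -4.16 in the falling tail of the first step and at 1.07 in the rising tail of the last, while Bcl6 at -0.50 lies inside the bulk of genes.

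The late rise left Irf8 and Id2 far below their starting level. At day 4 Irf8 was 9.97-fold lower than at day 0 in WT and 11.2-fold lower in KO, and Id2 4.88-fold and 4.23-fold lower. Their limma adjusted p-values lay between 9.69e-10 and 5.02e-09, where 42.7% of all genes fell in WT and 40.8% in KO. Per mouse, Irf8 was back to 5.03% to 13.8% of day 0, Id2 to 17.0% to 28.4%, and Bcl6 to 62.2% to 95.6%. For Bcl6 the day 4 minus day 0 difference was -0.29 in WT (SE 0.141, adjusted p = 0.0616), not called, and -0.32 in KO (SE 0.141, adjusted p = 0.0440), called.

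The Bcl6 values at day 4 sit at the threshold. With the mouse as a block the WT difference passed, at adjusted p = 0.0398 with an estimated correlation and 0.0242 with a fixed mouse term, while the alternatives together ran from 0.0159 to 0.458. Without mouse 480 the WT value was -0.12 and without KO mouse 532 its adjusted p was 0.0395. The KO call was lost without WT mouse 529, WT mouse 531, KO mouse 481 or KO mouse 528, at adjusted p-values of 0.0604, 0.0724, 0.195 and 0.170 in that order, and the alternatives ran from 0.00959 to 0.195. The contrasts of day 2, 3 and 4 with day 0 share the same day 0 libraries, and that of day 4 with day 3 shares libraries with others, so they are given side by side only.

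Because FPKM is scaled by length, levels of the 3 genes can be set against each other. Irf8 exceeded Bcl6 at day 0 in all 6 mice, by 5.47-fold to 6.05-fold in FPKM. From day 2 on the order was turned: the ratio of Irf8 to Bcl6 was 0.306 to 0.436 at day 2, 0.272 to 0.424 at day 3 and 0.489 to 0.847 at day 4. Id2 was the most abundant in every library. Its ratio to Irf8 was 1.76 to 3.64 at day 0, 7.34 to 12.8 at day 2, and 5.05 to 7.25 at day 4.

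Mice 480 and 481, whose day 0 libraries held the most B cell and neutrophil RNA, had the highest Irf8 and Bcl6 of their genotype at day 0 and the lowest Irf8 on every RANKL day. The labels do not name a batch. Without these mice, Irf8 fell by 3.86 in WT and fell by 4.12 in KO from day 0 to day 2 and rose by 1.21 and 1.06 from day 3 to day 4, and each passed the limma test. Id2 fell by 2.74 and 2.52 and rose by 1.001 and 0.81 without them, also past the test.

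STING deficiency was not accompanied by a called difference in any of the 3 genes on any day. Mean Irf8 was 77.7 ± 16.003 FPKM for WT mice and 76.3 ± 6.28 for KO mice before RANKL (SD, n = 3 each). It was 3.39 ± 0.673 against 2.99 ± 0.490 FPKM at day 2, 3.09 ± 0.625 against 2.57 ± 0.523 FPKM at day 3, and 7.80 ± 2.58 against 6.79 ± 0.473 FPKM at day 4. Genotypes overlapped on every day. The overlap on RANKL days came from WT mouse 480: without it, every KO library lay below every WT library at days 2, 3 and 4, on day 4 at 6.25, 7.13 and 6.99 against 9.49 and 9.07 FPKM on day 4. The KO minus WT difference in log2 was -0.01 at day 0 (95% interval -0.74 to 0.72), -0.13 at day 2 (-0.53 to 0.26), -0.19 at day 3 (-0.53 to 0.14) and -0.13 at day 4 (-0.50 to 0.24). Without WT mouse 480 the Irf8 difference was 0.15, -0.27, -0.33 and -0.40 at days 0, 2, 3 and 4 (adjusted p = 0.142 at day 4), and without mice 480 and 481 it was -0.35 at day 4 (SE 0.0711, adjusted p = 0.0938, alternatives 0.0938 to 1). The setting without mice 480 and 481 was added after the data were seen. Leaving out 1 mouse at a time, the Irf8 difference at day 4 ran from -0.40 to 0.02, the latter without WT mouse 529. With all mice, limma adjusted p-values for Irf8 were 0.934 or above, and the unadjusted p-values 0.239 or above. Of the 12 values for the 3 genes, 0 had an unadjusted p under 0.05, the smallest being 0.0978 for Bcl6 at day 2.

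Bcl6 means were 13.5 ± 2.14 FPKM for WT mice and 13.4 ± 1.04 for KO mice before RANKL (SD, n = 3 each). The widest gap, at day 2, was 9.22 ± 1.02 against 8.07 ± 0.264 FPKM. The Bcl6 differences were -0.001 at day 0 (95% interval -0.37 to 0.37), -0.17 at day 2 (-0.37 to 0.03), -0.09 at day 3 (-0.26 to 0.08) and -0.03 at day 4 (-0.22 to 0.16). For Id2 they were -0.31 at day 0 (-0.80 to 0.18), -0.10 at day 2 (-0.37 to 0.16), 0.004 at day 3 (-0.22 to 0.23) and -0.07 at day 4 (-0.32 to 0.18). Before RANKL, Id2 had a WT mean of 217 ± 19.3 FPKM and a KO mean of 177 ± 37.9 FPKM (SD, n = 3 each), with the lowest value, 136 FPKM, in KO mouse 532. Few genes differed by genotype at all: 0.0992% of those tested at day 0 (0.0893% lower in KO), 0.0298% at day 2, 0.0198% at day 3 and 0.0298% at day 4. These shares depend on the setting. At day 4, 3 genes were higher in KO and 0 lower, but 4 higher and 43 lower without WT mouse 480. At day 0, 1 was higher and 9 lower, but 3 higher and 35 lower with equal weights and 1 higher and 1 lower with a pseudocount of 0.1.

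**Figure D3:**
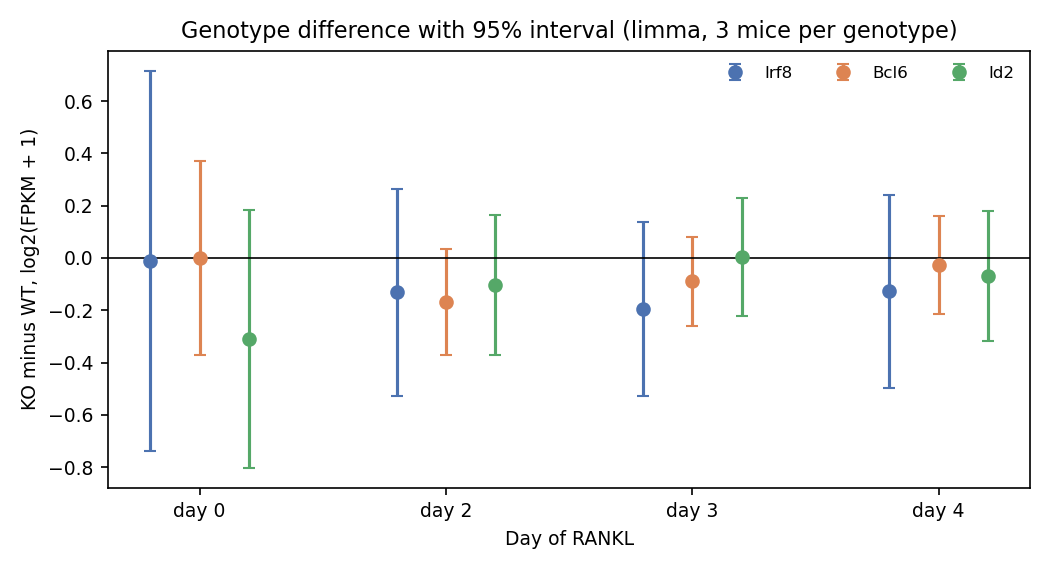
KO minus WT difference of Irf8, Bcl6 and Id2 in log2(FPKM + 1) (y axis) at each day (x axis), as points with 95% intervals from limma. All 12 intervals include 0, and those at day 0 are the widest, from -0.74 to 0.72 for Irf8.

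The intervals show what these 3 mice per genotype could resolve: for Bcl6 on RANKL days they ran from -0.37 to 0.16 together, but for Irf8 at day 0 from -0.74 to 0.72. The change from day 0 was also compared between genotypes. The KO minus WT difference at days 2, 3 and 4 against that at day 0 was -0.12, -0.18 and -0.12 for Irf8, -0.17, -0.09 and -0.03 for Bcl6, and 0.21, 0.31 and 0.24 for Id2. None was called (limma adjusted p of 0.906 or above, unadjusted p of 0.242 or above), where 0.0397%, 0.0694% and 0.0496% of genes were.

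By contrast, interferon-stimulated genes did differ before RANKL. Of 10, 5 were lower in KO at day 0 and 0 were higher, where 0.0893% of all genes were lower. The 5 were Ifit1, Ifit3, Rsad2, Mx1 and Usp18. The median log2 difference of the 10 was -1.65 against -0.01 for all genes tested. Ifit3, an antiviral RNA-binding protein, had a WT mean of 10.8 ± 4.17 FPKM and a KO mean of 1.6 ± 0.197 FPKM (SD, n = 3 each). Usp18, which removes Isg15 from proteins, stood at 14.1 ± 3.28 and 3.78 ± 0.897 FPKM (SD, n = 3 each). The count of 5 became 7 with equal weights and 0 with a pseudocount of 0.1, and it was 2 without WT mouse 480, 1 without KO mouse 481 and 3 without WT mouse 529, WT mouse 531 or KO mouse 532. Irf8, a member of the interferon regulatory family, differed by -0.01 on that day.

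Over the course, the interferon-stimulated genes also fell early and rose late. In WT 10 of 10 fell from day 0 to day 2 (median -3.18), where 37.5% of all genes fell. From day 3 to day 4, 9 rose in WT (median 0.62), where 19.0% of all genes rose. In KO 9 fell (median -1.44) and 4 rose (median 0.34), where 36.5% of all genes fell and 18.2% rose. Usp18 in WT ran from 14.1 FPKM at day 0 to 0.322, 0.367 and 1.57 FPKM at days 2, 3 and 4, and Rsad2, the antiviral enzyme viperin, from 12.4 to 0.270, 0.502 and 1.01 FPKM. For Mx1, an antiviral GTPase, the day 4 minus day 3 difference in WT was 0.13 (limma adjusted p = 0.184), not called. Its WT libraries were at 0.0493 to 0.120 FPKM at day 3 and, without overlap, 0.166 to 0.207 FPKM at day 4. At such levels the added 1 FPKM keeps any log2 difference small.

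The combination of an early fall and a late rise was not rare. Of the 3785 genes that fell from day 0 to day 2 in WT, 1190 (31.4%) rose from day 3 to day 4. In KO it was 1032 of 3675 (28.1%), and 898 of the 3442 genes that fell in both genotypes rose in both (26.1%, or 8.91% of all genes tested). Irf8, Bcl6 and Id2 were all among the 898. The early and late steps use different libraries of the same mice.

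**Figure D4:**
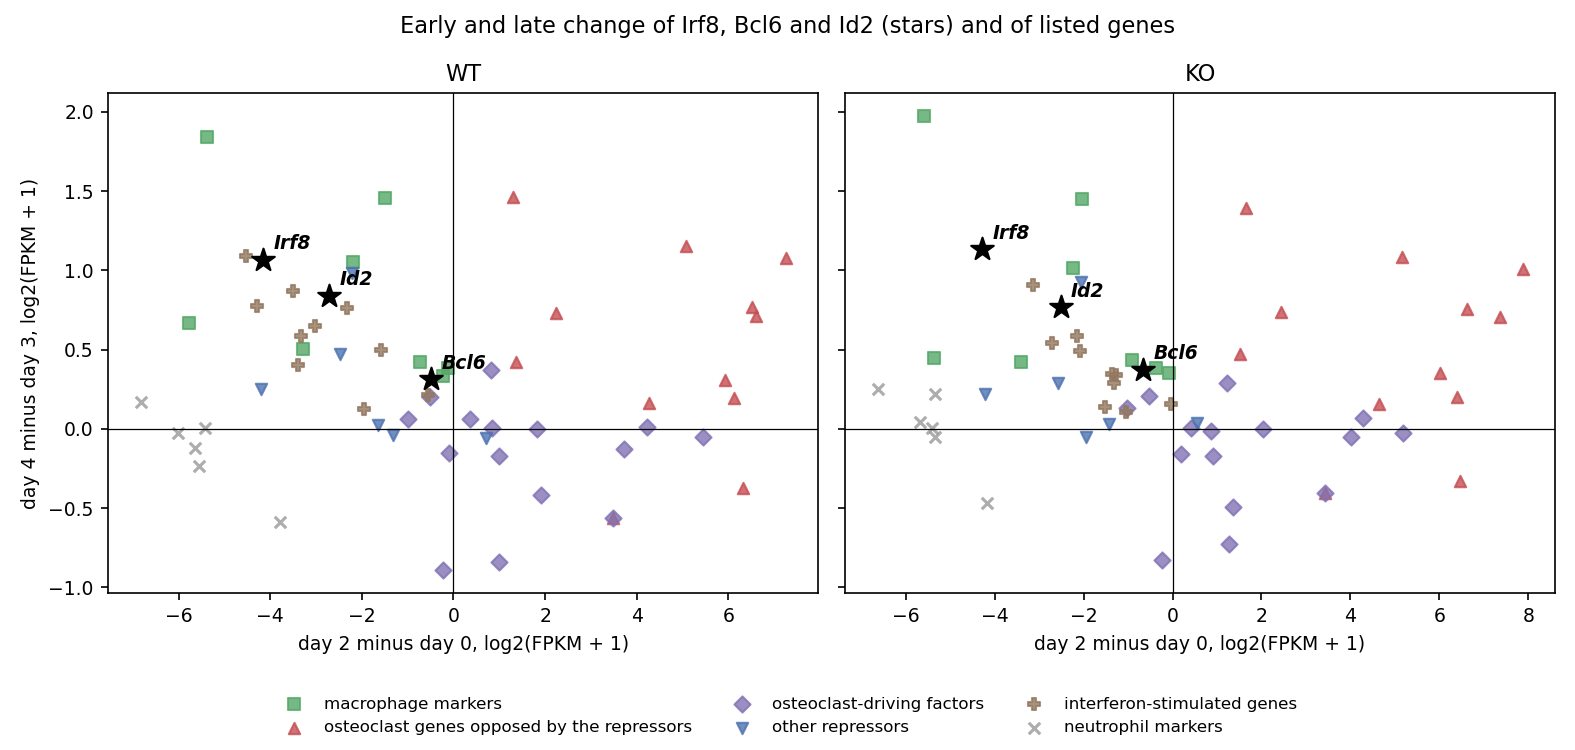
Log2 difference of FPKM + 1 at the early step (day 2 minus day 0, x axis) against the late step (day 4 minus day 3, y axis) for Irf8, Bcl6 and Id2 (stars) and for the genes of 6 lists (symbols), WT left and KO right. The 3 stars lie at upper left, with an early fall and a late rise, next to macrophage markers and interferon-stimulated genes, whereas osteoclast genes lie to the right of 0 on the x axis and neutrophil markers lie left of it and near 0 on the y axis.

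Other repressors of osteoclast formation mostly fell early as well. Of 9 listed, 6 were tested: 5 fell and 1 rose by day 2 in each genotype, with medians of -1.92 in WT and -2.01 in KO. Among all genes, 37.5% fell at that step in WT and 36.5% in KO. Klf2, a quiescence factor of myeloid cells, went from 126 ± 38.9 to 5.77 ± 1.38 FPKM in WT (SD, n = 3 each) and fell by 4.21 (limma adjusted p = 4e-12), about as far as Irf8. Rbpj, the DNA-binding factor of Notch signalling, fell by 1.31, Nr4a1, an orphan nuclear receptor, by 1.64, and Id1, a close relative of Id2, by 2.48 in WT. The gene that rose was Zbtb7a, at 0.71 in WT.

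From day 3 to day 4 only Id3 of these 6 rose, in both genotypes, where 19.0% of all genes rose in WT and 18.2% in KO. The WT count was 2 with the mouse as a block, in a fit of the compared groups only, without WT mouse 480 (with or without KO mouse 481) and without the day 3 library of WT mouse 531. Id3, another relative of Id2, ran at 88.0, 17.2, 17.0 and 35.3 FPKM at days 0, 2, 3 and 4 in WT. Id1 was at 2.64 and 4.02 FPKM at days 3 and 4 in WT, a difference of 0.47 that was not called (limma adjusted p = 0.0752), and Klf2 (0.25), Rbpj (-0.04) and Nr4a1 (0.02) were not called either.

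Factors that drive osteoclast formation mostly moved the other way early. Of 15 tested, 11 rose and 2 fell by day 2 in each genotype, with medians of 0.99 in WT and 1.22 in KO. Among all genes, 38.5% rose at that step in WT and 37.1% in KO. Prdm1, whose product Blimp1 represses Irf8 and Bcl6, went from 1.29 ± 0.751 to 28.5 ± 5.34 FPKM in WT (SD, n = 3 each) and rose by 3.72 (limma adjusted p = 7.9e-13). Jdp2 and Fosl2, both AP-1 proteins, rose by 5.44 and 4.23, and Nfkb2, a subunit of the alternative NF-kB pathway, by 1.82. Nfatc1 went from 13.1 ± 1.55 to 157 ± 27.2 FPKM (SD, n = 3 each) and rose by 3.48. The 2 that fell were Tfe3 and Rela. Like the 3 regulators and 8.91% of all genes tested, Rela fell by day 2 and rose from day 3 to day 4 in both genotypes.

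While the regulators rose from day 3 to day 4, 2 of these 15 drivers rose and 4 fell in each genotype, where 19.8% of all genes fell in WT and 17.6% in KO. Nfatc1 went from 158 to 107 FPKM in WT, a fall by 0.56 (limma adjusted p = 0.00097), and fell by 0.41 in KO (adjusted p = 0.012). Mitf, an osteoclast bHLH factor, fell by 0.84 in WT. Prdm1 was at 39.0 and 35.7 FPKM at days 3 and 4 in WT, a difference of -0.13 that was not called (adjusted p = 0.386). Jdp2 (-0.05), Fosl2 (0.01) and Nfkb2 (0.00) were not called.

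Osteoclast effector genes that the repressors oppose rose early and mostly went on rising. All 12 rose by day 2, with medians of 5.51 in WT and 5.59 in KO, where 38.5% and 37.1% of all genes rose. From day 3 to day 4, 8 of the 12 rose and 2 fell in WT, and 8 rose and 1 fell in KO. Among all genes, 19.0% rose and 19.8% fell at that last step in WT, and 18.2% and 17.6% in KO. Nfatc1, counted here as well as among the drivers, was 1 of the 2 that fell in WT and the 1 that fell in KO. Acp5, the tartrate-resistant phosphatase, rose by 1.08 in WT over that last step, Oscar, an immune co-receptor, by 1.15, and Car2, the carbonic anhydrase of acid secretion, by 0.31. For Dcstamp, a fusion protein, the difference was 0.20 (limma adjusted p = 0.189), not called.

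Irf8 acts with partner proteins. Of 8, 5 fell and 1 rose by day 2 in WT, and 4 fell and 1 rose in KO, where 37.5% and 36.5% of all genes fell. Batf3 and Batf, AP-1 partners of Irf8 in dendritic cells, went from 9.47 to 0.274 FPKM and from 15.3 to 3.31 FPKM in WT and fell by 3.02 and 1.95. Irf4, the closest relative of Irf8, was low throughout, with WT means of 1.20 FPKM at day 0 and 0.0851 FPKM at day 2. It fell by 0.97, a difference that the added 1 FPKM keeps small at such levels. Sfpi1 (PU.1), the myeloid factor with which Irf8 binds DNA and which osteoclasts also need, rose by 0.36 in WT, from 519 to 661 FPKM. None of these 4 was called from day 3 to day 4 in WT.

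Genes known to need Irf8 in myeloid cells fell early and mostly rose late. Of 10 listed, 6 were tested, and 6 fell by day 2 in WT (median -2.26) and 5 in KO (median -2.15). From day 3 to day 4, 5 of 6 rose in each genotype, with medians of 0.96 and 0.87, and with equal weights 3 rose in KO. Among all genes, 37.5% fell by day 2 in WT and 36.5% in KO, and 19.0% and 18.2% rose from day 3 to day 4. Ly86, a partner of a Toll-like receptor relative, ran at 330, 4.45, 3.73 and 12.9 FPKM at days 0, 2, 3 and 4 in WT. Cybb, the catalytic subunit of the phagocyte oxidase, ran at 138, 18.0, 27.0 and 63.0 FPKM, and Ctss, a cysteine protease of antigen processing, at 2345, 557, 348 and 591 FPKM. Klf4, a monocyte factor, was at 4.77 and 4.02 FPKM at days 3 and 4, a difference of -0.20 that was not called (limma adjusted p = 0.110).

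Of 8 chromatin silencers tested, which are reported to act on Irf8 and other repressors, 5 rose and 1 fell by day 2 in WT, and 4 rose and 2 fell in KO, where 38.5% and 37.1% of all genes rose. Dnmt3a, a DNA methyltransferase, went from 16.7 ± 1.64 to 49.7 ± 5.06 FPKM in WT (SD, n = 3 each) and rose by 1.52. Kdm1a, a histone demethylase, rose by 0.43, and its cofactor Rcor1 by 2.52, from 1.73 to 14.2 FPKM. For Ezh2, the catalytic subunit of the Polycomb complex that methylates histone H3, the day 2 difference was -0.03 in WT, and from day 3 to day 4 it fell by 0.41. Over that last step 0 of 8 rose and 4 fell in WT, and 0 rose and 2 fell in KO. Among all genes, 19.0% rose and 19.8% fell in WT, and 18.2% and 17.6% in KO.

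The corepressors through which Bcl6 works had shares of calls near those of all genes. Of 9, 3 rose and 3 fell by day 2 in each genotype, where 38.5% of all genes rose and 37.5% fell in WT, with 5 rising in WT under equal weights. Bcor, which binds Bcl6 directly, rose by 1.44 in WT, from 2.07 to 7.39 FPKM, and Tbl1x, a subunit of the NCoR complex, by 1.89. Hdac3, the deacetylase of that complex, fell by 0.53, and Gps2, another subunit, by 0.44. Genes that Bcl6 represses in lymphocytes had 3 of 9 rising and 5 falling by day 2 in each genotype. Prdm1 and Cd44, an adhesion receptor, rose by 3.72 and 1.41 in WT, while Ccl3, a chemokine, fell by 5.26 from 482 FPKM and Ccnd2, a cyclin, fell by 1.18 from 1.62 FPKM. Ccnd2 was at 0.0630 to 0.141 FPKM at day 2 in WT, so the added 1 FPKM shrinks its difference.

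Of 7 possible bHLH partners of Id2, 3 rose and 3 fell by day 2 in WT, and 3 rose and 4 fell in KO, near the shares of all genes (38.5% and 37.5% in WT, 37.1% and 36.5% in KO). Tcf12, an E protein, rose by 1.16 in WT, from 12.1 to 28.2 FPKM, and Tcf4, another E protein, fell by 1.37, from 11.9 to 3.85 FPKM. Tfe3 and Tfeb, relatives of Mitf that control lysosomal genes, fell by 0.99 and 1.65. Neither Tcf12 nor Tcf4 was called from day 3 to day 4, at -0.09 and 0.18 in WT.

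Markers of other cell types were set beside the late rise. Of the macrophage markers, 8 of 8 rose from day 3 to day 4 in each genotype (medians 0.59 and 0.44). Among all genes, 19.0% rose at that step in WT and 18.2% in KO. The KO marker count was 4 with equal weights and 4 or 5 when any 1 of the KO mice was left out. The sum of the 8 markers was 2542 to 2995 FPKM at day 3 and 3257 to 4035 FPKM at day 4. Most of it was Cd68, at 1848 to 2248 FPKM at day 3 and 2289 to 3044 FPKM at day 4, above its 1422 to 2183 FPKM at day 0. At day 4 against day 0, 2 of the 8 rose and 4 fell in WT, and 2 rose and 5 fell in KO. Of all 10081 genes, 3954 rose and 4304 fell in WT, and 3892 and 4115 in KO. Fcgr1, the high-affinity IgG receptor, ran at 75.1, 0.396, 0.326 and 1.15 FPKM in WT, and Mrc1, the mannose receptor, at 124, 1.86, 3.62 and 15.4 FPKM. Of the 8, 6 both fell by day 2 and rose from day 3 to day 4 in both genotypes: Emr1, Cd14, Mertk, Fcgr1, Mrc1 and Itgam. Of all genes tested, 8.91% did so.

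Dendritic cell markers, of which 5 of 7 are in the table, summed to 4.65 to 6.41 FPKM at day 3 and 10.1 to 14.7 FPKM at day 4. Itgax, an integrin subunit, went from 4.55 to 10.2 FPKM in WT and rose by 1.03, and Zbtb46, a dendritic cell factor, went from 1.10 to 1.54 FPKM and rose by 0.27. The other 3 were under 0.1 FPKM in every library of days 2 to 4. B cell markers stayed at 0.162 to 0.595 FPKM in sum on RANKL days. Neutrophil markers had 0 of 6 rising from day 3 to day 4 in either genotype, where 19.0% of all genes rose in WT and 18.2% in KO. Il7r, on the list of lymphoid markers, rose by 0.69 in WT, from 3.77 to 6.75 FPKM. How far a change in the mix of cells contributed to the late rise of Irf8, Bcl6 and Id2 was not tested.

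Genes most like each regulator over the 24 libraries were found by Pearson correlation of log2(FPKM + 1), as a description. Libraries of a day share their culture stage, so high values are common: 1587 genes exceeded 0.9 with Irf8, 1546 with Id2 and 156 with Bcl6. The nearest to Irf8 were Dhrs3, a retinal reductase (0.997), Atp6v0a1, a proton pump subunit (0.997), Hlx, a homeobox factor (0.997), Tmem106a and Rab3il1 (0.996 each). Dhrs3 ran at 420, 16.003, 15.3 and 34.6 FPKM at days 0, 2, 3 and 4 in WT. Most opposite were Lrpprc (-0.995), which supports mitochondrial mRNA, Acad10 (-0.993), an acyl-CoA dehydrogenase family member, and 5730528L13Rik (-0.992).

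For Bcl6 the nearest were Bhlhe41, a bHLH repressor (0.954), Tgif1, a homeobox repressor (0.952), Lipa, the lysosomal acid lipase (0.947), Rassf4 (0.945) and Lyz2, macrophage lysozyme (0.943). Lyz2 ran at 15456, 2939, 3135 and 6355 FPKM in WT. Most opposite to Bcl6 were Ubac1 (-0.955), Timm17a, a mitochondrial import subunit (-0.952), and Rwdd4a (-0.942). For Id2 they were Ggh, a folate-processing hydrolase (0.992), Gmfg, an actin regulator (0.991), and Fabp4, Amdhd2 and Fabp5 (0.989 each), of which Fabp4 and Fabp5 carry fatty acids. Fabp4 ran at 283, 2.92, 2.49 and 9.08 FPKM in WT. Most opposite to Id2 were Arhgap10 (-0.990), Ppif (-0.989) and Slc6a17 (-0.988).

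Between the regulators themselves, the correlation over 24 libraries was 0.982 for Irf8 and Id2, 0.899 for Irf8 and Bcl6 and 0.858 for Bcl6 and Id2. Over the 18 RANKL libraries alone it was 0.871, 0.862 and 0.708 in that order. These libraries come from 6 mice and share culture days, so the values describe this set.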

How the data were processed

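Per the submitters' processing notes, reads were aligned with HISAT2 2.0.5 to mm10 and quantified with Cufflinks 2.2.1 and Cuffdiff. The authors deposited gene-level FPKM for 24 libraries in 1 table of 10721 genes, which is named for significant genes. How these genes were selected is not given in the sources used here. FPKM keeps no depth, so no counting intervals are given; summed FPKM was 459180 to 734974 per library. The 10081 genes whose mean reached 1 FPKM in some group entered limma 3.58.1 (run under R 4.3.3) as log2(FPKM + 1): 1 mean per genotype and day, a mean-variance trend, and library weights by day (0.355, 1.20, 1.70 and 1.38 at days 0, 2, 3 and 4), with 16 residual degrees of freedom and a moderated two-sided test. P-values were adjusted by Benjamini-Hochberg over all genes tested within each of 17 comparisons, with 0.05 as threshold; "rose" and "fell" mean past it. The weights by day were used because earlier results showed more spread at day 0. The procedure was tested on simulated data with independent libraries, so that test did not cover the correlation between libraries of a mouse.

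Irf8, Bcl6, Id2 and the 16 gene lists were chosen with earlier results of these data known. Beyond the 3 genes, the rule named up to 4 genes per list with the smallest adjusted p for WT day 4 against day 0, and the 5 most alike and 3 most opposite genes. Nfatc1, Mitf, Id3, Zbtb7a, Ifit1, Rela, Cd68 and the macrophage markers named for both steps were added after their values were seen. List genes not in the table, or under the filter, were left out, and 1 listed gene is not reported here.

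A number marks a mouse across the days of its genotype. Deviations from group means of libraries of the same mouse correlated with a median of 0.136 in WT (10 of 18 pairs over 0.1) and 0.261 in KO (17 of 18), so the mouse was used as a block in alternatives. Gene positions come from GENCODE on GRCm38, and promoter windows from RefSeq on GRCm38.p6; the Id2 window, which overlaps an annotated longer transcript, is described but not printed. Of the symbols, 89.5% are current RefSeq symbols.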

Additional observations from a re-analysis of the deposited data

How the results depend on the processing

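Of 876 recomputed values for the 51 combinations of gene and comparison, 824 kept direction and side of the threshold, 12 calls were lost, 10 were gained, and 30 values changed sign, none of them called. No call for Irf8 was lost in these settings, and for Id2 only that of WT day 3 against day 2. The causes were not tested.

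With the replicate block by mouse (estimated correlation 0.227), the uncalled Bcl6 difference of WT day 4 against day 0, -0.29, passed (limma adjusted p = 0.0398, and 0.0242 with a fixed mouse term), as did the Id2 difference of KO day 3 against day 2, -0.29 (0.0258 and 0.0328). It changed no other call of the 3 genes, nor did a block of neighbouring mouse numbers. The Bcl6 value also passed with equal weights (-0.29, adjusted p = 0.0159) and median scaling (-0.33, 0.0293), and the Id2 value in a fit of the compared groups only (-0.29, 0.0152).

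Settings added after seeing the data left out mice 480 and 481. Calls lost were Bcl6 in WT day 2 against day 0 (-0.30, adjusted p = 0.0921), Id2 in WT day 3 against day 2 (-0.42, 0.0538) and Bcl6 in KO day 4 against day 0 (-0.27, 0.109). Uncalled values of other sign were Bcl6 in KO day 3 against day 2 (0.014), KO minus WT at day 0 for Irf8 (0.0939) and Bcl6 (0.0551), and at day 3 for Id2 (-0.0209). Without only their day 0 libraries, Bcl6 in KO day 4 against day 0 was -0.26 (0.104), and KO minus WT at day 0 was 0.0939 for Irf8 and 0.0551 for Bcl6.

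Leaving out 1 mouse at a time, Bcl6 ran from -0.60 to -0.30 for WT day 2 against day 0, -0.41 to -0.12 for WT day 4 against day 0, 0.28 to 0.34 for WT day 4 against day 3, -0.42 to -0.27 for KO day 4 against day 0, -0.0938 to 0.014 for KO day 3 against day 2 and 0.32 to 0.41 for KO day 4 against day 3. Id2 ran from -0.48 to -0.28 for WT and -0.32 to -0.27 for KO day 3 against day 2. KO minus WT ran from -0.12 to 0.15 at day 0 and -0.40 to 0.0231 at day 4 for Irf8, -0.09 to 0.11 at day 0 and -0.10 to 0.0508 at day 4 for Bcl6, and -0.21 to 0.0234, -0.0232 to 0.0392 and -0.23 to 0.0578 at days 2, 3 and 4 for Id2. The genotype difference in the change from day 0 ran from -0.41 to 0.0637, -0.47 to 0.01 and -0.55 to 0.11 at days 2, 3 and 4 for Irf8, and -0.23 to 0.0169 and -0.20 to 0.0893 at days 3 and 4 for Bcl6.

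Of 2720 recomputed list counts, 171 moved by over 1.5 times, 33 of them with 3 or more genes. Counts over all genes also moved. KO minus WT calls ran from 2 to 38 at day 0 (10 as reported), 1 to 5 at day 2 (3), 1 to 3 at day 3 (2) and 1 to 47 at day 4 (3), the 47 being without WT mouse 480. Genotype differences in the change from day 0 ran from 1 to 7, 1 to 9 and 0 to 6 at days 2, 3 and 4 (4, 7 and 5). From day 3 to day 4, equal weights gave 1092 rising and 1103 falling genes in WT (1912 and 2001 as reported) and 977 and 832 in KO (1832 and 1777). The KO numbers were 1091 and 1121 without KO mouse 481 and 1146 and 930 without KO mouse 528. For KO day 3 against day 2, 2843 genes were called without KO mouse 532 (4422).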
